A study of Rattus norvegicus with 12 samples.

Results

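Complement is an innate defence system of plasma and tissue proteins, and 9 of its genes were followed here in rat uterine tissue: C3, C2, Cfb, Cfd, Cfi, C1s, C1r, Serping1 and Cd55. They were taken by gene symbol from a deposited table of 34034 genes, and all 9 were present and passed the filter on low counts. The table holds counts from QuantSeq, a library method that sequences the 3′ ends of polyadenylated transcripts, for 12 libraries in 4 groups of 3. The tissue came from female rats that were 8 weeks old. Normal libraries are from uninjured horns. AS libraries are from horns whose lining had been abraded with a bent needle, the injury used in the series to model intrauterine adhesion. CP libraries are from injured horns that received a control patch, printed from Endo-UdECM with no cells in it. EEP libraries are from injured horns given the printed endometrial patch with cells. In both groups the patch was placed 2 days after the injury. The opposite horn of an EEP animal was either left as an internal control or given CP, so libraries of different groups may share an animal. The labels tie no library to an animal and name no strain, and the p-values measure only the spread between these libraries. The samples are titled as endometrium, whereas the design text speaks of uterine tissue. Smooth muscle markers summed to 1817 to 11481 CPM per library (counts scaled to a common library size), so muscle transcripts were present in every library.

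Complement is started by the classical, lectin and alternative routes, which converge on the cleavage of C3. In the classical route the proteases C1r and C1s, held inactive by the C1 inhibitor that Serping1 encodes, cleave C4 and C2. In the alternative route factor D (Cfd, also known as adipsin, an abundant product of fat cells) cleaves factor B (Cfb). Factor I (Cfi) inactivates C3b and C4b, and Cd55 is a membrane-anchored protein that speeds the decay of the C3 convertases on a cell's own surface. C3 is known in the rat uterus as an estrogen-induced secretory product of the epithelium.

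Promoter windows of 250 bases before to 50 bases after the transcript start were in the RefSeq table of rat assembly GRCr8 for 5 of the 9 genes: C3, Cfd, Cfi, C1r and Cd55. C2, Cfb, C1s and Serping1 are not shown. The windows below are those of C3, Cfi and Cd55, whose levels varied together between libraries, and of C1r, whose level varied least. Each is written 5′ to 3′ on the strand of the gene. They lie at chr9:2201290-2201589 (minus strand) for C3, chr2:221063066-221063365 (plus) for Cfi, chr13:44438052-44438351 (minus) for Cd55 and chr4:159098763-159099062 (plus) for C1r. Capitals mark matches to TTGCNNAA, a form of the C/EBP recognition sequence, searched on both strands.
C3: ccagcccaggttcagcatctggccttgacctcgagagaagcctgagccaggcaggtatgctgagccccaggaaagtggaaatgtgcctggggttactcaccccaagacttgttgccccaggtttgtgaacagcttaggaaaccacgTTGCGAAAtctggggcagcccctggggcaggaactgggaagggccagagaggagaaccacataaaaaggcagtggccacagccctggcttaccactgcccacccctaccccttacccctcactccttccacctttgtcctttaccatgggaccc
Cfi: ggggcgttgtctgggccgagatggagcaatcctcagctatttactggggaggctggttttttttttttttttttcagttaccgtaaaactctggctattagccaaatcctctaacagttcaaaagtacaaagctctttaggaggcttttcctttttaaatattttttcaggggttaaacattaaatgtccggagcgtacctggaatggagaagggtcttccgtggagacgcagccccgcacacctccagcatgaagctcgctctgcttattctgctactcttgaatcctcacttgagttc
Cd55: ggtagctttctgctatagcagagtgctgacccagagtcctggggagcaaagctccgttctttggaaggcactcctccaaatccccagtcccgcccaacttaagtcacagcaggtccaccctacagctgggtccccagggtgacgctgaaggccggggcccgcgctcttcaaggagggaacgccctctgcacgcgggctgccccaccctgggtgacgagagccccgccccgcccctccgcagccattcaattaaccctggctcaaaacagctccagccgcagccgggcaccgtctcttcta
C1r: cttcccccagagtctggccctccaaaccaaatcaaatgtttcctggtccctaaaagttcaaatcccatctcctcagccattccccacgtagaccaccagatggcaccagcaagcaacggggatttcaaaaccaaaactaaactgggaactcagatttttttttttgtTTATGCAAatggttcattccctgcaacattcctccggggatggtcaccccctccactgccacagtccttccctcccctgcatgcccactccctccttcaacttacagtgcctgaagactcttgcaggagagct
TTGCNNAA was found in the windows of C3 and C1r, in 2 of the 5 members with a window. In C3 the match TTGCGAAA lies at positions -104 to -97 from the start on the gene's strand, and in C1r the match TTATGCAA lies at positions -83 to -76 on the opposite strand. Of all 27457 rat windows of the same length, 10.5% hold this motif. GGTCA, a core of the estrogen receptor element, was found in 4 of the 5 windows on either strand, against 40.2% of all windows, and the full palindrome (GGTCA, 3 bases of any kind, TGACC) in none of the 5, against 0.0255%. TTCNNNGAA, the STAT element, and GAAA, 2 bases of any kind, GAAA, the interferon element, were in none of the 5 windows, against 8.68% and 3.77% of all windows. GC content was 58.3% for C3, 45.0% for Cfi, 63.7% for Cd55 and 50.3% for C1r. The search describes these letters and shows nothing about binding. Of C3, Cfi and Cd55, only C3 held a TTGCNNAA match in its window. A relation between this motif and the levels was not tested.

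In the deposited table, positioned on mRatBN7.2 by its information sheet although mm10, from mouse, is the build in the submitters' processing notes, the members sit on 7 chromosomes. C2 (chr20:3951474-3970376) and Cfb (chr20:3970643-3976510) are neighbours on the plus strand, 267 bp apart. C1s (chr4:157430249-157442438, minus) and C1r (chr4:157412718-157423483, plus) are 6766 bp apart. C3 lies at chr9:2087437-2114366 (minus), Cfd at chr7:9813148-9814871 (minus), Cfi at chr2:218389079-218430565 (plus), Serping1 at chr3:69842726-69852583 (minus) and Cd55 at chr13:41857242-41885966 (minus). The 3′ end of Cfb lies 2 bp from that of Nelfe on the opposite strand, which had 1395 counts over all libraries against 7925 for Cfb. Whether the counting used strand is not given in the sources used here, so a split between these neighbours is uncertain.

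Total counts were 4866790 to 8938227 per library. Between 18.9% and 82.5% of these fell on the 37 mitochondrial genes, and nuclear genes had 1202525 to 5832552 counts. EEP 1 stood apart with the lowest mitochondrial share (18.9%) and the most nuclear counts. The share was above every normal library in all AS and CP libraries (two-sided exact permutation test, p = 0.1 for each, the smallest possible with 3 against 3). A count of 3 corresponded to 0.336 to 0.616 CPM before scaling. Levels below are CPM scaled by TMM, and they are compared between libraries of 1 gene, not between genes.

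None of the 9 complement genes changed between the groups at the threshold used. In edgeR's quasi-likelihood test, with Benjamini-Hochberg adjustment over 13909 genes, 0 of the 9 passed an adjusted p of 0.05 in any of 6 comparisons, or in the test for any difference among the 4 groups. Over all genes, 0.00719% were called in AS versus normal, 0.00719% in CP versus AS, 0.0144% in EEP versus AS, 0% in EEP versus CP, 0.00719% in EEP versus normal and 0% in CP versus normal. In the 4-group test 0.0359% were called. Before adjustment, 1 of the 9 members (Cfd, in AS versus normal) and 5.55% of all genes had a p under 0.05 in that comparison. No member did in CP versus AS, EEP versus AS, EEP versus CP, EEP versus normal or CP versus normal, against 12%, 10.1%, 2.99%, 7.56% and 12.7% of all genes. DESeq2 called 0 members in each comparison. Over all genes it called 32 in AS versus normal, 119 in CP versus AS, 126 in EEP versus AS and 1 in EEP versus CP. It called 65 in EEP versus normal, 270 in CP versus normal and 288 among the 4 groups. Among 54 p-values of the members in the authors' deposited table the lowest was 0.0292 (C1r, CP against normal), and the lowest q-value was 0.573. The smallest adjusted p of a member by edgeR was 0.454, for C2 in CP versus AS. The comparisons that share a group are not independent.

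**Figure D1:**
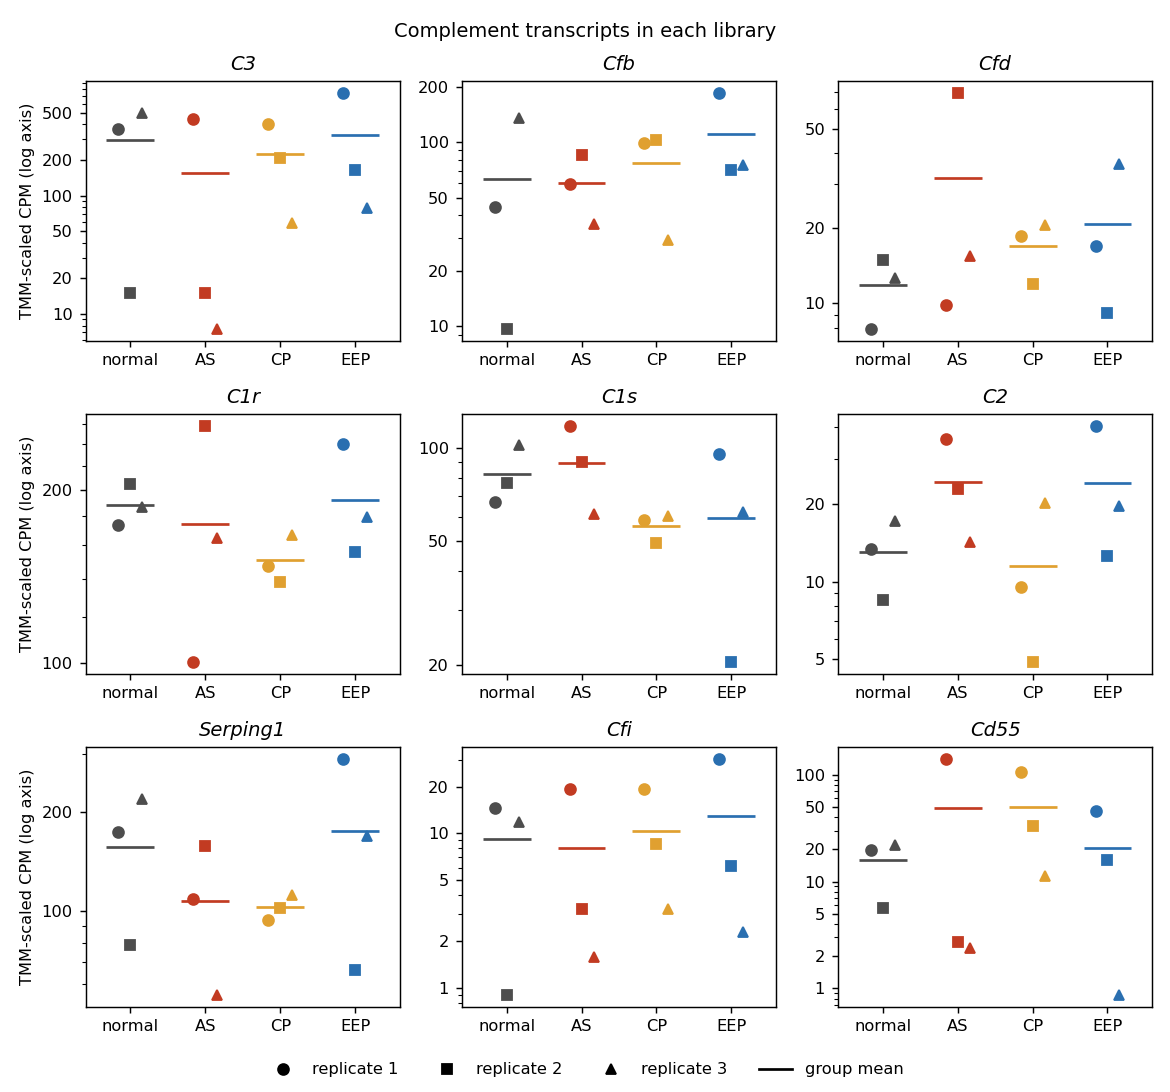
TMM-scaled CPM of each complement gene (log axis) in the 12 libraries by group, with 1 marker shape per replicate number and a line at the group mean. C3, Cfb, Cfi and Cd55 spread over more than a factor of 10 within at least 1 group, whereas C1r stays between 100.3 and 258 CPM.

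C3 encodes the central component on which the routes converge. Its level was 369, 15.1 and 501 CPM in normal 1, 2 and 3, and 442, 15.0 and 7.51 CPM in AS 1, 2 and 3. It was 405, 209.7 and 58.8 CPM in CP 1, 2 and 3, and 741, 166 and 79.5 CPM in EEP 1, 2 and 3. Every group held at least 1 library at or above 369 CPM and at least 1 at or below 79.5 CPM, so the ranges overlapped for every pair of groups. Group means were 295 ± 251 CPM (SD, n = 3) for normal, 155 ± 249 for AS, 225 ± 174 for CP and 329 ± 359 for EEP. The log2 difference of AS from normal was -0.93 (SE 1.24, 95% interval -3.56 to 1.70; edgeR adjusted p = 0.983). That of EEP from AS was 1.09 (SE 1.25, interval -1.55 to 3.72; edgeR adjusted p = 0.806). The latter interval covers levels in EEP from 0.342-fold to 13.2-fold of those in AS, so neither a large rise nor a fall was resolved. AS 1 set most of the AS mean: without it, the log2 difference of AS from normal was -4.73 (edgeR unadjusted p = 0.0015, adjusted p = 0.576). The difference from AS was then 4.35 for CP and 4.93 for EEP, with edgeR adjusted p = 0.292 and 0.301. Without EEP 1, the difference of EEP from AS turned to -0.34 (edgeR adjusted p = 0.924).

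Cfb encodes the protease precursor of the alternative convertase. It was 44.5, 9.71 and 135 CPM in the normal libraries, 59.4, 84.8 and 36.0 CPM in AS, 99.0, 103 and 29.5 CPM in CP, and 185, 70.7 and 75.1 CPM in EEP, each in the order 1, 2, 3. The normal libraries held both the lowest value of all 12 and the second highest, after EEP 1. The EEP mean was 110.2 ± 64.7 CPM (n = 3) and the AS mean 60.1 ± 24.4, a log2 difference of 0.88 (SE 0.695; edgeR adjusted p = 0.706), with overlapping ranges.

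Cfd, whose product activates factor B, had the smallest unadjusted p-value of any member in the main edgeR fit. It was 7.91, 14.9 and 12.6 CPM in normal 1, 2 and 3, and 9.88, 69.4 and 15.4 CPM in AS 1, 2 and 3. It was 18.6, 11.9 and 20.6 CPM in CP and 17, 9.16 and 36.1 CPM in EEP, in the same order. AS 2 was the highest of all 12 libraries, ahead of EEP 3, and the other AS libraries lay within or next to the normal range. The log2 difference of AS from normal was 1.42 (SE 0.639, interval 0.07 to 2.77; edgeR unadjusted p = 0.0408 and adjusted p = 0.888). Without AS 2 it was 0.087, with an edgeR adjusted p of 0.992. Among the 9 markers of fat cells, Plin1, a coat protein of lipid droplets, was 7.87 CPM in AS 2 and at most 1.26 CPM elsewhere. Cidec was 2.88 CPM in AS 2 and Lep 1.34 CPM, and both were at or below 0.19 CPM in the other 11 libraries. Fabp4 was also highest in AS 2, at 18.8 CPM. Adipoq, on the same list, was not: it was 10.6 CPM in AS 2 against 49.9 CPM in AS 1 and 51.8 CPM in CP 1. The summed level of the 9 markers was 24.0 to 60.1 CPM in normal, 30.04 to 71.9 in AS, 28.5 to 56.8 in CP and 22.8 to 49.7 in EEP. Their part in the Cfd value of AS 2 was not tested.

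C1r and C1s encode the paired proteases of the classical route. C1r was 174, 205 and 186 CPM in normal 1, 2 and 3, and 100.3, 258 and 165 CPM in AS 1, 2 and 3. It was 147, 138 and 167 CPM in CP and 241, 156 and 179 CPM in EEP, in the same order. It was the steadiest member: its highest library stood 2.58-fold above its lowest, and its log2 differences between groups ran from -0.32 to 0.35 with standard errors near 0.36. All CP libraries lay below all normal libraries for C1r, at 151 ± 14.8 against 188 ± 15.5 CPM (n = 3 each). The log2 difference was -0.32 (SE 0.361, interval -1.08 to 0.44; edgeR adjusted p = 0.738). Over the 6 comparisons the 95% intervals for C1r ran from 0.472-fold at the lowest to 2.16-fold at the highest.

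C1s was 67.1, 77.3 and 102 CPM in normal 1, 2 and 3, and 118, 90.0 and 61.5 CPM in AS 1, 2 and 3. It was 58.6, 49.4 and 60.3 CPM in CP and 95.5, 20.4 and 62.4 CPM in EEP, in the same order. The CP libraries lay below every normal and every AS library, and the lowest of the 12 was EEP 2. The log2 difference of CP was -0.68 from AS (SE 0.448; edgeR adjusted p = 0.554) and -0.55 from normal (SE 0.446; adjusted p = 0.629). With C1s and C1r, 2 of the 9 members had all CP libraries below all normal ones, against 14.8% of all genes tested. In CP versus AS 1 member, C1s, did, against 9.22%. These shares do not single out the members. C1s was highest in AS 1, the library in which C1r was lowest.

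C2 encodes the component that C1s cleaves. It was 13.4, 8.51 and 17.3 CPM in normal 1, 2 and 3, and 36.0, 23.0 and 14.2 CPM in AS 1, 2 and 3. It was 9.55, 4.87 and 20.2 CPM in CP and 40.4, 12.6 and 19.7 CPM in EEP, in the same order. The AS and EEP means, 24.4 ± 10.95 and 24.2 ± 14.4 CPM (n = 3), were about equal, and both lay above the normal mean of 13.1 ± 4.39 and the CP mean of 11.5 ± 7.84, with overlapping ranges. The log2 difference was 0.90 for AS versus normal (SE 0.554; edgeR adjusted p = 0.922) and -1.08 for CP versus AS (SE 0.562, interval -2.27 to 0.11; adjusted p = 0.454). For EEP versus CP it was 1.08 (SE 0.561; edgeR adjusted p = 0.9997), and for EEP versus normal 0.90 (SE 0.553; edgeR adjusted p = 0.776).

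Serping1 encodes the inhibitor of C1r and C1s. It was 173, 78.8 and 218 CPM in normal 1, 2 and 3, and 109, 158 and 55.7 CPM in AS 1, 2 and 3. It was 94.3, 103 and 112 CPM in CP and 289, 66.2 and 169 CPM in EEP, in the same order. The CP libraries were close together and lay inside the ranges of the other groups. The log2 difference of EEP was 0.70 from AS (SE 0.506; edgeR adjusted p = 0.674) and 0.77 from CP (SE 0.506; adjusted p = 0.9997).

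Cfi encodes the protease that inactivates C3b. It was 14.7, 0.901 and 11.8 CPM in normal 1, 2 and 3, and 19.4, 3.26 and 1.58 CPM in AS 1, 2 and 3. It was 19.4, 8.56 and 3.23 CPM in CP and 30.3, 6.15 and 2.31 CPM in EEP, in the same order. Counts behind the low values were few, with 9 in normal 2, 8 in AS 3 and 8 in EEP 3. The groups overlapped fully, and the log2 differences between them ran from -0.16 (AS versus normal) to 0.70 (EEP versus AS, SE 1.03; edgeR adjusted p = 0.860). The latter was 2.5 without AS 1 and -0.91 without EEP 1.

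Cd55 protects host cells from the convertases. It was 19.8, 5.61 and 22.1 CPM in normal 1, 2 and 3, and 141, 2.69 and 2.37 CPM in AS 1, 2 and 3. It was 106, 33.1 and 11.2 CPM in CP and 45.6, 15.8 and 0.867 CPM in EEP, in the same order. The value in EEP 3 rests on 3 counts and that in AS 1 on 840. AS 1 and CP 1 were the highest libraries, while the other AS libraries lay below every normal one. The log2 difference was 1.62 for AS versus normal (SE 1.25, interval -1.02 to 4.26; edgeR adjusted p = 0.956), and it turned to -2.66 without AS 1 (adjusted p = 0.755). For CP versus normal it was 1.65 (SE 1.25, interval -0.99 to 4.30; edgeR adjusted p = 0.602), and without CP 1 it was 0.50 (adjusted p = 0.928). Without the filter on low counts, edgeR gave Cd55 an adjusted p of 0.0236 in CP versus normal and of 0.0104 in the 4-group test. That setting called 445 and 675 of all genes there, against 0 and 5 with the filter. The calls of Cd55 were the only ones of any member under any alternative run.

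**Figure D2:**
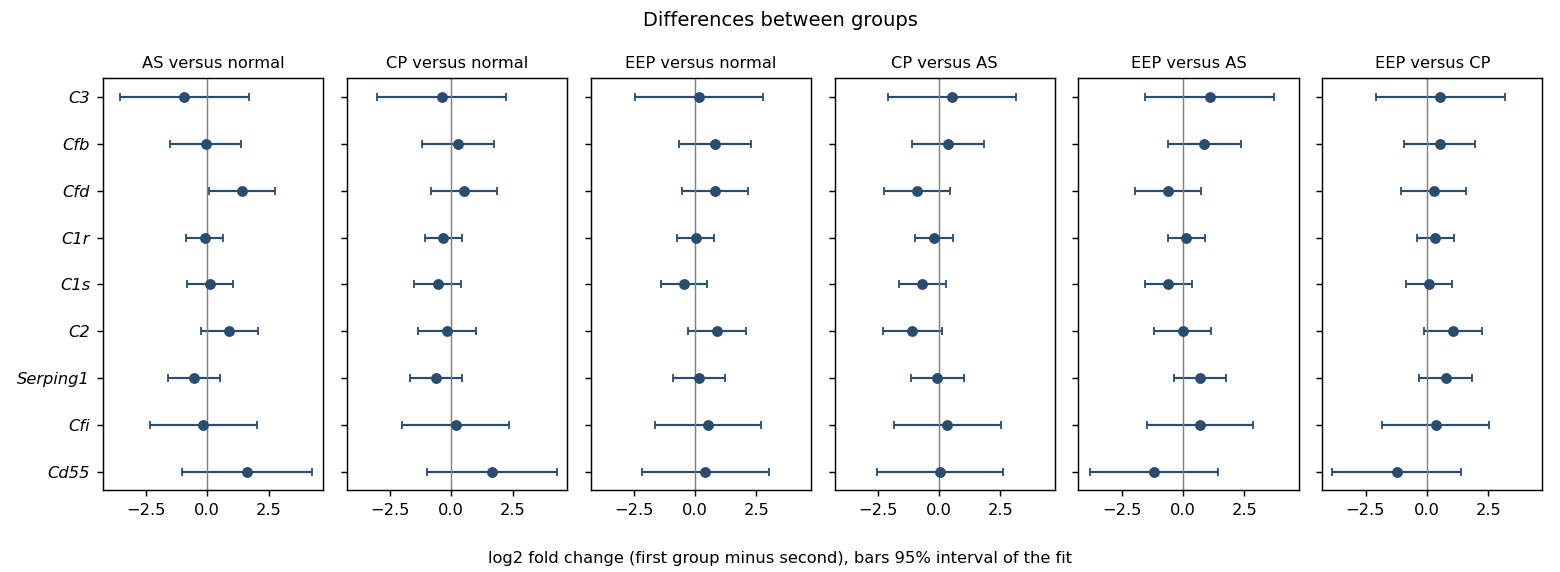
Log2 fold change of each complement gene in the 6 comparisons (first group minus second) with the 95% interval of the edgeR fit. The intervals of C3 and Cd55 are the widest and those of C1r the narrowest, and all but that of Cfd in AS versus normal (0.07 to 2.77) include 0.

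Taken over the 9 members, 8 lay above 0 in EEP versus CP and 8 in EEP versus normal, against 52.7% and 49.7% of all genes, with median log2 differences of 0.35 and 0.42 against 0.04 and -0.0065 over all genes. The exceptions were Cd55 in EEP versus CP (-1.23) and C1s in EEP versus normal (-0.47). The members numbered 4 above and 5 below 0 in AS versus normal, in CP versus AS and in CP versus normal, and 5 above and 4 below in EEP versus AS, against 51.6%, 49.2%, 48.4% and 50.9% of all genes above 0. EEP 1 was the highest of all 12 libraries for C3, C2, Cfb, Cfi and Serping1. Without EEP 1, 3 of the 9 members (C2, Cfb and Cfd) were above 0 in EEP versus normal and 6 below, with a median of -0.42. The log2 differences were then -1.27 for C3, -1.08 for Cfi, -1.01 for C1s, -0.87 for Cd55, -0.42 for Serping1 and -0.18 for C1r. In EEP versus CP, 4 were above 0 without EEP 1 (C2, Cfd, C1r and Serping1) and 5 below, from -2.52 for Cd55 to -0.083 for Cfb. In EEP versus AS, 2 were above and 7 below without EEP 1. Without normal 2, 5 were above 0 and 4 below in EEP versus normal.

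The members differed most in how far libraries of the same group lay apart. The SD of log2 CPM within groups, pooled over the 4 groups, was 2.35 for C3 and 2.34 for Cd55. Among the 13909 genes tested, 42 had a larger value than C3 and 44 a larger one than Cd55, which puts both at percentile 99.7. Cfi followed with 1.74 (percentile 96.9), then Cfb with 1.18 (76.3) and Cfd with 0.93 (61.0). C2 (0.77, percentile 49.1) and Serping1 (0.76, percentile 48.6) lay near the median gene, which had 0.78. C1s had 0.64 (percentile 37.3) and C1r 0.39 (percentile 10.4). The percentiles are over genes of every level, and no comparison with genes of similar level was made. Mean log2 CPM was 6.88 for C3, 3.87 for Cd55, 2.75 for Cfi and 7.42 for C1r. The part of low counts in this ranking was not tested. Leaving out each library in turn kept C3 at percentiles 98.9 to 99.8, Cd55 at 98.3 to 99.8, Cfi at 89.0 to 97.7 and C1r at 2.93 to 15.8, while C1s moved between 9.04 (without EEP 2) and 45.7.

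**Figure D3:**
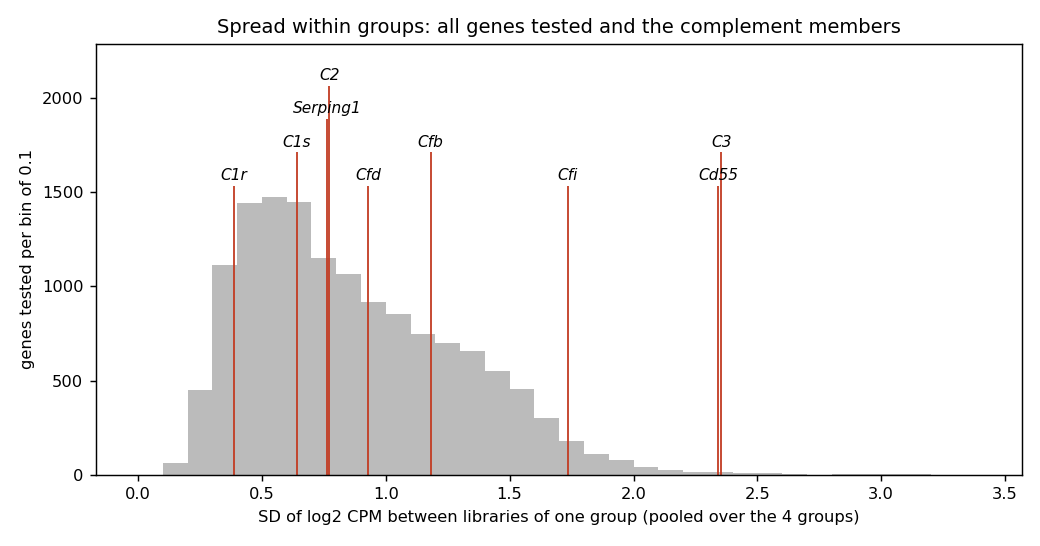
Histogram of the pooled within-group SD of log2 CPM (horizontal axis) for the 13909 genes tested (vertical axis, genes per bin of 0.1), with each complement gene marked. C3 and Cd55 sit in the far right tail at 2.35 and 2.34, and C1r at 0.39 lies left of the median of 0.78.

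C3, Cfi and Cd55 were high and low in the same libraries. In AS, CP and EEP the library numbered 1 had the highest and that numbered 3 the lowest level of each of these 3 genes, and normal 2 was the lowest normal library for each. Over the 12 libraries, Pearson's r of log2 CPM was 0.922 between C3 and Cfi (permutation p = 3e-05, adjusted p = 0.00108 over 36 pairs of members), with Spearman's rho 0.895 (adjusted p = 0.00378). It was 0.843 between Cfi and Cd55 (permutation test, adjusted p = 0.0117; rho 0.888) and 0.783 between C3 and Cd55 (adjusted p = 0.0377; rho 0.839). Without the 2 libraries farthest from the median of the first gene, r was 0.972, 0.868 and 0.691. With the group means taken out, r was 0.964, 0.879 and 0.880 for C3 with Cfi, C3 with Cd55 and Cfi with Cd55. Leaving out each library in turn gave 0.91 to 0.942 for C3 with Cfi, 0.749 to 0.884 for C3 with Cd55 and 0.817 to 0.887 for Cfi with Cd55. None of the other 33 pairs passed, the nearest being Cfi with Cfb (r = 0.712, adjusted p = 0.0651). C3 and C1r had r = -0.321 (permutation test, adjusted p = 0.596). The permutation tests, here and with the marker lists below, treat the 12 libraries as independent. Libraries of different groups may share an animal, and the p-values take no account of that.

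**Figure D4:**
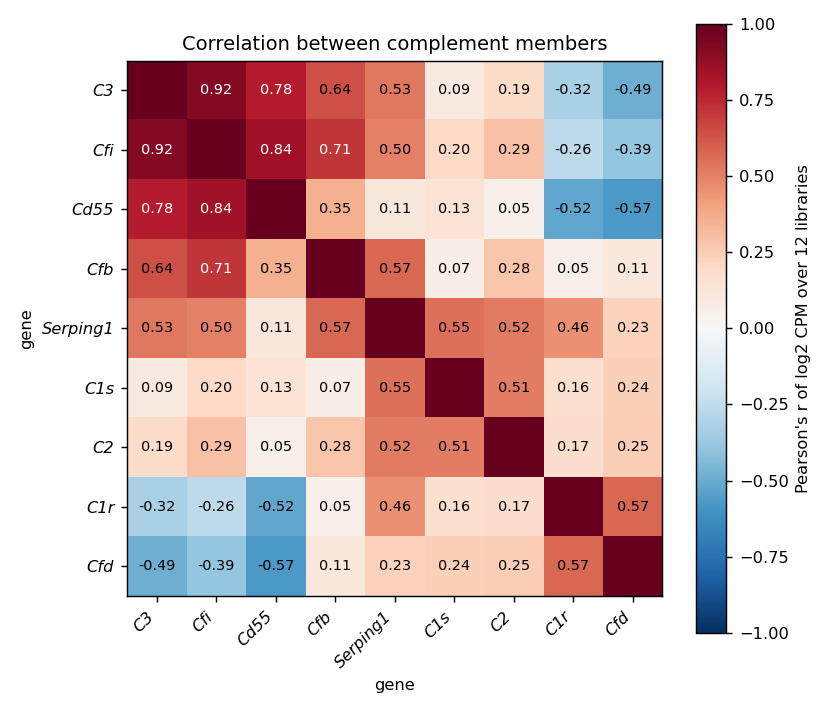
Pearson's r of log2 CPM over the 12 libraries for each pair of complement genes (both axes list the 9 genes; colour gives r). The block of C3, Cfi and Cd55 holds the values 0.922, 0.843 and 0.783, and C1r has r between -0.521 (Cd55) and 0.574 (Cfd) with the other members.

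C3, Cfi and Cd55 also varied with markers of the simple epithelium that lines the uterine cavity. All 11 listed markers were tested, and the score is their mean log2 CPM. Pearson's r with the score was 0.876 for Cfi, 0.873 for Cd55 and 0.813 for C3. Spearman's rho was 0.881, 0.916 and 0.874. In permutation tests of r, adjusted over 54 pairs of a member with 6 marker lists, p was 0.0081, 0.0081 and 0.0333. Adjusted over 135 pairs with all 15 marker lists, it was 0.0202, 0.0202 and 0.08 for r, so that C3 no longer passed, and 0.0202, 0.0162 and 0.0202 for rho, so that all 3 did. Without AS 1 and EEP 1, the libraries farthest from the median score, r was 0.840, 0.861 and 0.806. Epcam, an adhesion molecule of epithelial cells, was 129, 28.2 and 137 CPM in normal 1, 2 and 3, 149.5, 29.5 and 36.0 CPM in AS, 93.8, 78.2 and 43.4 CPM in CP, and 206, 40.4 and 37.9 CPM in EEP. Its 4 lowest libraries were normal 2, AS 2, AS 3 and EEP 3, where C3 was also at or below 79.5 CPM. Krt19, a keratin of simple epithelia, reached 953 CPM in AS 1 against 3.65 CPM in AS 2. The summed level of the 11 markers was 212 to 599 CPM in normal, 167 to 2374 in AS, 202 to 775 in CP and 185 to 1360 in EEP. C1r (r = -0.389) and Cfb (r = 0.445) showed no such relation at the threshold (permutation test, adjusted p = 0.526 and 0.433 over the 54 pairs). Fewer cells of a type and less RNA per cell cannot be told apart in whole tissue, and the part of the epithelial share in the C3, Cfi and Cd55 values was not tested.

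**Figure D5:**
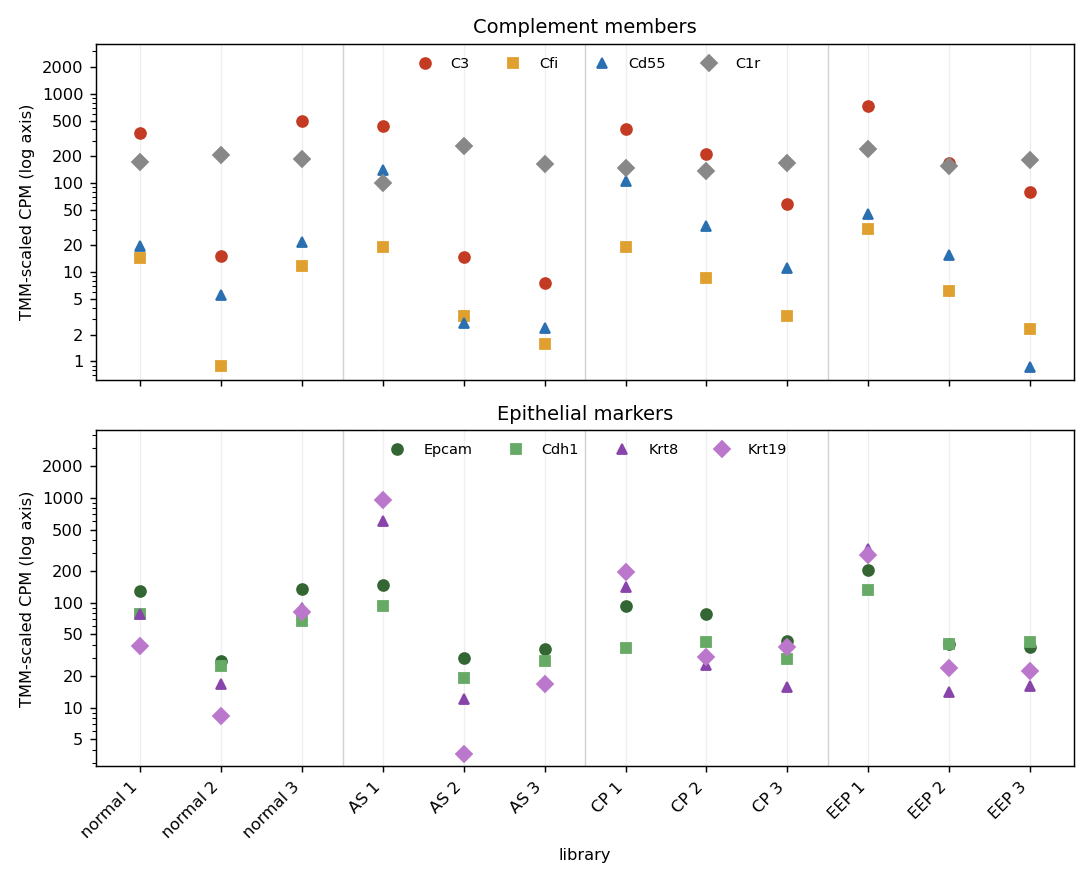
TMM-scaled CPM (log axis) in the 12 libraries (horizontal axis) of C3, Cfi, Cd55 and C1r in the upper panel and of epithelial marker genes in the lower panel. Normal 2, AS 2 and AS 3 are low and AS 1 and EEP 1 high for C3, Cfi, Cd55 and the epithelial markers. C1r, in contrast, is lowest in AS 1 (100.3 CPM) and highest in AS 2 (258 CPM).

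Of the other 14 marker lists, none passed for any member by r once all 135 pairs were adjusted together. C2 varied with the 15 markers of macrophages and monocytes (r = 0.754, rho = 0.853, permutation test), with an adjusted p of r of 0.0467 over the 54 pairs and 0.0972 over the 135. For rho it was 0.0209 over the 135, and r was 0.798 without AS 1 and EEP 2. C1s had r = 0.729 (adjusted p = 0.0467 over the 54 and 0.0972 over the 135; rho 0.629, adjusted p = 0.164 over the 54), but its r fell to 0.41 without AS 1 and EEP 2 and so rests on those libraries. The macrophage list includes C1qa, C1qb and C1qc, which are complement genes themselves, and no score without them was computed. The summed macrophage markers were 404 to 530 CPM in normal, 530.1 to 2826 in AS, 516 to 1188 in CP and 371 to 974 in EEP. C1r had r = -0.803 with the erythrocyte markers (permutation test, adjusted p = 0.08 over the 135; rho -0.713), and r = -0.569 without normal 2 and AS 1. Endothelial markers ran opposite to Cd55 (r = -0.699), Cfi (r = -0.652) and C3 (r = -0.526), with adjusted p of 0.191, 0.259 and 0.409 over the 135. Cfd had r = 0.732 with the fat cell markers (adjusted p = 0.101 over the 54) and 0.569 without AS 2 and CP 1. No member passed with the estrogen-induced uterine genes, the interferon response or the stroma and fibroblast markers. The nearest of these was Cfd with the interferon response (r = 0.652, adjusted p = 0.135 over the 54). Liver makes most plasma complement, and of the 6 liver markers Alb was 0.828 to 10.4 CPM, Apoa1 at most 3.27 CPM, Ttr at most 0.633 CPM and Fgb at most 0.672 CPM, while Tf was 19.96 to 70.3 CPM. Serpina1, also on that list, is not printed here.

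Of 58 complement genes listed, the members included, 57 were in the table under the symbol used and 41 were tested. Another 8 had no count in any library: Mbl1, Masp2, Colec11, C8b, C9, Cpn1, Cpn2 and Cpb2. None of the 41 was called in any comparison by edgeR. Before adjustment 4 had a p under 0.05 in AS versus normal, 4 in CP versus AS, 3 in EEP versus AS, 0 in EEP versus CP, 3 in EEP versus normal and 5 in CP versus normal, or 9.76%, 9.76%, 7.32%, 0%, 7.32% and 12.2%. Of all genes, 5.55%, 12%, 10.1%, 2.99%, 7.56% and 12.7% did in the same comparisons. The list's median log2 difference was 0.29 in AS versus normal, 0.47 in EEP versus normal and 0.19 in CP versus normal, against 0.03, -0.0065 and -0.04 over all genes. It was -0.03 in CP versus AS, 0.01 in EEP versus AS and 0.22 in EEP versus CP, against -0.02, 0.02 and 0.04.

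The classical and lectin list held 14 tested genes, and C4b, which encodes a form of C4, the other substrate of C1s, had the smallest p in all 3 comparisons with normal. C4b was 8.33, 6.81 and 10.2 CPM in normal 1, 2 and 3, 17.4, 72.5 and 19.8 CPM in AS, 50.3, 18.3 and 29.1 CPM in CP and 25.1, 15.0 and 43.6 CPM in EEP. Every library of the AS, CP and EEP groups lay above every normal one, as did 6.51%, 13.1% and 6.14% of all genes in these comparisons. The log2 difference from normal was 2.11 for AS (SE 0.571; edgeR adjusted p = 0.590), 1.94 for CP (SE 0.569; adjusted p = 0.217) and 1.72 for EEP (SE 0.566; adjusted p = 0.533). C4a is a near-identical copy, so how the counts were split between the pair is uncertain. C1qa, a chain of the C1q recognition subunit, had a log2 difference of 0.83 in AS (SE 0.408; edgeR adjusted p = 0.891) and 0.88 in CP versus normal (SE 0.409; adjusted p = 0.386). Fcnb, a ficolin, was 115 CPM in AS 1 and at most 14.3 CPM in the other libraries. Colec12 went the other way, with -1.13 in CP versus normal (SE 0.385, edgeR adjusted p = 0.253). Mbl2 had the smallest p of the list in CP versus AS and in EEP versus AS. Its log2 differences there were 5.56 (SE 2.45) and 7.04 (SE 2.45), with an edgeR adjusted p of 0.390 in each.

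Among the regulators beside Serping1, Cfi and Cd55, none was called. Cd59b, a membrane inhibitor of the terminal complex, was 208, 130.3 and 173 CPM in normal 1, 2 and 3, 356, 295 and 284 CPM in AS, 207, 156 and 136 CPM in CP and 184, 76.2 and 133 CPM in EEP. All AS libraries were above all others. Taken pair by pair, 6.51% of all genes lay so against normal, 9.22% against CP and 7.05% against EEP. The share above all other groups at once was not computed. The log2 difference was 0.87 for AS versus normal (SE 0.368; edgeR adjusted p = 0.860), -0.91 for CP versus AS (SE 0.369; adjusted p = 0.355) and -1.25 for EEP versus AS (SE 0.371; adjusted p = 0.348). Clu, a secreted inhibitor of the terminal complex, had a log2 difference of -1.44 in CP versus AS (SE 0.511; edgeR adjusted p = 0.312). Of 7 terminal genes 3 were tested. C7, a component of the membrane attack complex, had log2 differences of 0.50 in AS versus normal and -0.68 in CP versus AS (edgeR adjusted p = 0.971 and 0.579). The others, C6 and C8g, went up in both. C6 had 1.46 and 0.81 (edgeR adjusted p = 0.959 and 0.794), and C8g 0.38 and 0.98 (adjusted p = 0.994 and 0.813). Among the 9 receptors tested, C5ar1, which binds C5a, had 1.28 in EEP versus normal (SE 0.500, edgeR adjusted p = 0.603). C3ar1, which binds C3a, had 1.39 in CP versus normal (SE 0.552, edgeR adjusted p = 0.308). C5ar2 went the other way, with -2.98 in CP versus AS (SE 1.39, edgeR adjusted p = 0.408). In CP versus normal it had -2.39 (SE 1.36, edgeR adjusted p = 0.479). There 6 of the 9 receptors lay above 0 and 3 below.

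Genes with the pattern most like that of a member were ranked by Pearson's r of log2 CPM over the 12 libraries, as a description. For C3 they were Lpo (r = 0.972), which encodes lactoperoxidase, Muc4 (0.972), a membrane mucin, and Slco4a1 (0.953). Muc4 ran from 6.91 CPM in normal 2 to 339 CPM in EEP 1. For Cd55 they were Ovol2 (0.952), an epithelial transcription factor, Ptpn3 (0.949) and Rnf149 (0.947). For Cfb they were Exph5 (0.884), Zdhhc12 (0.865) and Efnb2 (0.860), and for C1s Fhl1 (0.923), Tmem115 (0.917) and Ndufb4 (0.906). The libraries share preparation and differ in depth, and the genes so named were found by searching all 13909.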

How the data were processed

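Rat uterine tissue was profiled by QuantSeq 3′ mRNA sequencing from 1000 ng of total RNA per library, with single-end reads of 75 bp, in 12 libraries. Per the labels, reads were aligned with Bowtie2 and quantified with bedtools; versions are not given in the sources used here. The raw counts per gene are as deposited by the authors, as are a p-value and a q-value per comparison whose test the file headers do not name. The processing notes name mm10, while the authors' information sheet names mRatBN7.2.

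All values here were computed from the raw counts. No row lacked a gene name. Genes were filtered with filterByExpr and scaled by TMM in edgeR 4.0.16 (R 4.3.3), which left 13909 genes. The 12 libraries were fitted together (glmQLFit, glmQLFTest) with a common biological coefficient of variation of 59.2%. A gene counts as called where its p, adjusted by Benjamini-Hochberg over all genes tested, is under 0.05. CPM values are TMM-scaled, and errors are SDs over 3 libraries or standard errors of the fit. Correlations used log2 CPM, with 2-sided permutation tests of 100000 permutations (smallest possible p 1e-05) and adjustment over 36 pairs of members and 54 pairs of a member and 6 marker lists. The same tests over 135 pairs with all 15 marker lists were added after seeing the data. The procedure was tested on simulated counts.

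The groups were compared as independent. With group means removed, libraries with the same replicate number correlated at -0.103 to 0.39 over 18 pairs of groups and numbers. The members, the gene lists and the tests were chosen with earlier results of these data known. The rule for named genes took all 9 members, up to 3 genes with the smallest p-values per complement list and comparison, of which a selection is printed, and the 3 genes most correlated with each of C3, Cfb, C1s and Cd55. The comparison of CP with normal was chosen after seeing the data. Alternatives were RLE scaling, DESeq2 1.42.0, other filters and thresholds, fits of 2 groups, removal of mitochondrial genes or their share as a covariate, a replicate block and the omission of single libraries.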

Additional observations from a re-analysis of the deposited data

How the results depend on the processing

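Of 756 member fold changes under alternatives (14 for each of 54), 678 kept their direction and 78 changed it. Without the low-count filter Cd55 passed the threshold in CP versus normal and, outside these 756, in the 4-group test; no other member passed under any alternative run. The causes were not tested. Each group has 3 libraries, so each library carries much of a group's mean, and the depth of nuclear counts limits Cfi and Cd55 most, with as few as 8 and 3 counts in a library. Alternatives for CP versus normal were chosen after seeing the data, as was the comparison.

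DESeq2 called 32 genes in AS versus normal, 119 in CP versus AS, 126 in EEP versus AS, 1 in EEP versus CP, 65 in EEP versus normal, 270 in CP versus normal and 288 among the 4 groups, none of them a member. Without the low-count filter these counts by edgeR were 154, 230, 143, 5, 232, 445 and 675, with 1 member (Cd55) in CP versus normal and 1 among the 4 groups, and C2 in EEP versus AS moved to 0.018. At an adjusted p under 0.1 the counts were 2 in CP versus AS, 6 in CP versus normal and 19 among the 4 groups. The stricter filter gave 0 genes in EEP versus normal and 2 among the 4 groups, and C2 at 0.00054 in EEP versus AS. Removing the mitochondrial genes gave 0 genes in EEP versus normal and C2 at 0.036 in EEP versus AS. Fitting 2 groups alone gave 1 gene in EEP versus AS, 3 in EEP versus normal and 585 in CP versus normal, and C2 at 0.041 in EEP versus AS.

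With the mitochondrial share as a covariate, 2 genes were called in CP versus AS and 2 in EEP versus normal. The log2 differences that turned were Cfb 0.44, Cfi 0.65 and C1r 0.013 in AS versus normal, C3 -0.37, Cfi -0.87 and C1r -0.00039 in EEP versus AS, and C3 -1.26, Cfb -0.10, Cfi -1.52 and C1s -0.25 in EEP versus CP. They were also C3 -0.45, Cfi -0.22 and Cd55 -0.36 in EEP versus normal, and C3 0.81 and C2 0.26 in CP versus normal.

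With the replicate block, 4 genes were called in EEP versus normal, 11 in CP versus normal and 18 among the 4 groups, and 0 members. Under the block Cd55 was -0.47 in AS versus normal, Cfi -0.048 and C1s -0.034 in EEP versus CP, and C3 -0.60, Cfi -0.038 and Cd55 -0.72 in EEP versus normal. The labels give the number no meaning beyond the replicate; in 9 of 18 pairs the own number correlated best, and 5 of the 18 correlations exceeded 0.1.

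Leaving out each library in turn gave 1 to 6 called genes in AS versus normal, 1 to 5 in CP versus AS, 1 to 19 in EEP versus AS, 0 to 200 in EEP versus normal, 0 to 6 in CP versus normal and 1 to 234 among the 4 groups, with the upper ends of EEP versus AS, EEP versus normal and the 4-group test without EEP 1. No member was called. In AS versus normal the log2 differences ran from -0.59 to 1.14 for Cfb, -1.93 to 0.35 for Cfi, -0.14 to 0.33 for C1s, -0.52 to 0.15 for C1r and -2.66 to 2.17 for Cd55. In CP versus AS they ran from -0.18 to 4.35 for C3, -1.28 to 0.46 for Cfd, -0.43 to 2.11 for Cfi, -0.45 to 0.22 for C1r, -0.34 to 0.35 for Serping1 and -1.11 to 4.32 for Cd55. In EEP versus AS they ran from -0.34 to 4.93 for C3, -0.61 to 0.44 for C2, -1.20 to 0.74 for Cfd, -0.91 to 2.5 for Cfi, -0.086 to 0.58 for C1r and -2.49 to 3.12 for Cd55. In EEP versus CP they ran from -0.87 to 1.32 for C3, -0.083 to 0.81 for Cfb, -0.35 to 0.63 for Cfd, -1.25 to 1.18 for Cfi and -0.45 to 0.50 for C1s. In EEP versus normal they ran from -1.27 to 0.78 for C3, -1.08 to 1.05 for Cfi, -0.18 to 0.15 for C1r, -0.42 to 0.55 for Serping1 and -0.87 to 1.0 for Cd55. In CP versus normal they ran from -1.12 to 0.22 for C3, -0.86 to 0.21 for C2, -0.23 to 1.5 for Cfb and -0.61 to 0.69 for Cfi.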

Other observations

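Adipoq, the adiponectin gene and a common fat cell marker, was high and low in many of the same libraries as C3. It was singled out after its values were seen. Its level was 9.28, 4.81 and 27.5 CPM in normal 1, 2 and 3, 49.9, 10.6 and 1.78 CPM in AS, 51.8, 26.9 and 13.1 CPM in CP and 35.1, 17.1 and 12.1 CPM in EEP. Over the 12 libraries its Pearson's r with C3 was 0.851 and its Spearman's rho 0.811, as a description. The score of the fat cell marker list had the opposite sign with C3, at r = -0.439 and rho = -0.301. It did not pass the threshold (permutation test of r, adjusted p = 0.433). The relation of Adipoq with C3 is thus that of 1 gene and not of the list. Plin1 was highest in AS 2, at 7.87 CPM, where Adipoq was 10.6 CPM.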
